A study of Mus musculus with 12 samples.

Results

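The subject is a set of 42 genes of DNA replication and S phase, taken by gene symbol from the gene table of an RNA sequencing study of mouse embryonic fibroblasts. The symbols cover the loading and activation of the replicative helicase, the primase and polymerases, the sliding clamp and its loader, the joining of fragments, the supply of deoxynucleotides, the chromatin steps that follow the fork, and the G1/S switch. Each of the 42 symbols had 1 entry among the 55573 genes of the table, and all 42 passed the limit for testing, as did 13516 genes in all. The fibroblasts came from β-actin-TVA/p53−/− mice, so every group lacks p53 and carries TVA, the receptor for avian RCAS viruses, under a β-actin promoter. The cells had been transduced with RCAS-GFP, called vector, or with RCAS-HOXB13, which carries a homeobox transcription factor of the posterior body. RNA of each line was taken at day 1 from confluent cells in DMEM with 5% FBS, and at day 21 from cells kept in OsteoMAX-XF, an osteogenic differentiation medium. Each combination of virus and day had 3 libraries, from triplicate wells of gelatin-coated plates, 12 in all. A separate plate was harvested on each day, so day, medium and plate cannot be told apart. Nothing in the labels says that the wells came from separate animals or transductions, so the p-values speak only of variation among these libraries, and that may be technical.

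In a dividing cell, origins are licensed in G1, when the origin recognition complex, Cdc6 and Cdt1 load the ring of Mcm2 to Mcm7 onto DNA. At the start of S phase, Cdc45 and the GINS complex join that ring to form the working helicase, and polymerase α-primase, polymerase δ and polymerase ε copy the strands behind it. Many of these genes are transcribed under the E2F factors, which the retinoblastoma family holds in check in resting cells and which cyclin E with its kinase helps to release. Fibroblasts that become confluent or differentiate often leave the cell cycle, and transcripts of replication genes are commonly used as a readout of how much a culture is cycling. The cells here lack p53 and were already confluent at day 1. Whether they left the cycle was not tested.

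Levels are reads per 1000000 of the scaled library size (RPM), where the scaling is the authors' TMM factor, and libraries held 11109392 to 15154317 gene reads. Hoxb13, the delivered gene, was listed at 0.150 to 0.571 RPM in the 6 vector libraries and at 238 to 331 RPM in the 6 HOXB13 libraries, as labelled. The X-linked Xist was at 151 to 452 RPM in the vector libraries and below 1 RPM in HOXB13, and the Y-linked Ddx3y at 96.8 to 108 RPM in HOXB13 and below 1 RPM in vector. In every comparison of the lines, interactions included, virus therefore cannot be told apart from the sex or the embryo of origin of the cells. Fibroblast markers (Col1a1, Col1a2, Col3a1, Pdgfra, Pdgfrb, Vim and Thy1) were above 1 RPM in every group. Per library they summed to 27676 to 28437 RPM in vector and 16380 to 16683 RPM in HOXB13 at day 1. At day 21 the sums were 25054 to 27905 RPM and 29598 to 30746 RPM. The sums hide members that moved apart. At day 1 limma called 3 of these 7 markers higher in HOXB13 and 4 lower (adjusted p under 0.05). At day 21 it called 4 higher and 3 lower. Over all tested genes, 33.9% were called higher and 38.5% lower at day 1, and 37.3% and 35.1% at day 21. The summed level of 5 mesothelial markers also moved with the groups: it was 585 to 607 RPM in vector and 178 to 189 RPM in HOXB13 at day 1, and 2363 to 2427 RPM and 70.5 to 83.6 RPM at day 21. Of these 5, 1 was called higher in HOXB13 at day 1 and 4 lower, and all 5 were lower at day 21. The 5 epithelial markers summed to 238 to 251 RPM and 20.8 to 23.0 RPM at day 1, and to 136 to 145 RPM and 1.06 to 1.71 RPM at day 21. The 5 macrophage markers moved with the day, from 4.16 to 5.18 RPM to 63.6 to 66.3 RPM in vector and from 3.87 to 5.00 RPM to 66.2 to 72.5 RPM in HOXB13; most of the sum at day 21 was Cd14, while Ptprc and Adgre1 were below 1 RPM in every library. The 4 endothelial markers summed to 14.3 to 14.8 RPM and 5.32 to 5.72 RPM at day 1, and to 31.7 to 33.7 RPM and 2.96 to 4.44 RPM at day 21. Only 2 of these 4 were tested, and at day 1 1 was higher in HOXB13 and 1 lower. The mean share of reads from mitochondrial genes went from 1.14% at day 1 to 2.67% at day 21 for vector and from 1.38% to 1.75% for HOXB13. The part of such cells or of RNA quality in the differences below was not tested. Scaled over counted library size gave a ratio of 1.15 for HOXB13 at day 1 and of 0.956 to 1.01 for the other groups, which bears on every comparison that includes HOXB13 at day 1.

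The promoter letters that E2F factors are known to bind are shown first. Whether these factors have a part in the changes below was not tested. RefSeq promoter windows of mouse build GRCm38.p6, from 250 bases before to 50 bases after an annotated start, were at hand for 34 of the 42 genes (41 windows). Each window was searched on both strands for TTTCCCGC, TTTGGCGC, TTTCGCGC and TTTGCCGC, and matches that overlap each other were counted apart. At least 1 match was found for 15 of the 34 genes (44.1%), against 704 of 27025 genes with a window (2.60%) and 474 of the 10312 tested genes with one (4.60%). In the list of mitosis genes, 1 of 18 had a match (5.56%). A match is only a description of these letters, and a window without one says nothing of the factor. Of 22 matches, 13 lay between 100 bases before and 50 after the start, a stretch that makes up a large part of each window. Whether matches gather there was not tested. The lines below give 4 of the helicase genes, each with at least 2 matches, then Cdt1, whose fall differs between the lines, Rfc3, which was higher in HOXB13 at day 1, and Rrm1, the gene that differs most between the viruses and whose window holds no match. Capitals mark the matches.

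The windows lie at chr1:20820263-20820562 on the minus strand (Mcm3), chr8:75109259-75109558 on the plus strand (Mcm5), chr1:128359656-128359955 on the minus strand (Mcm6), chr5:138171834-138172133 on the minus strand (Mcm7), chr8:122567765-122568064 on the plus strand (Cdt1), chr5:151651159-151651458 on the minus strand (Rfc3) and chr7:102441445-102441744 on the plus strand (Rrm1), and each is written 5′ to 3′ on the gene's strand.
Mcm3: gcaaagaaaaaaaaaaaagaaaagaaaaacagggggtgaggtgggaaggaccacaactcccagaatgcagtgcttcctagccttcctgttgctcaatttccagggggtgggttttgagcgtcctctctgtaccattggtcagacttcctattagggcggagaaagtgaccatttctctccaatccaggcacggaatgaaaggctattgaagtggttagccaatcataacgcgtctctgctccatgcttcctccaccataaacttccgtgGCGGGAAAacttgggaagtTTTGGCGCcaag
Mcm5: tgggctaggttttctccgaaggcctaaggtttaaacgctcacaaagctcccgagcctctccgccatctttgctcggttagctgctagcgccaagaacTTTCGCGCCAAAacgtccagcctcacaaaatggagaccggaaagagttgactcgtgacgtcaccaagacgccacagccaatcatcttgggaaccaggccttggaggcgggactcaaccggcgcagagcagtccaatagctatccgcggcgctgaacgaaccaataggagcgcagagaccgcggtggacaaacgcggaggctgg
Mcm6: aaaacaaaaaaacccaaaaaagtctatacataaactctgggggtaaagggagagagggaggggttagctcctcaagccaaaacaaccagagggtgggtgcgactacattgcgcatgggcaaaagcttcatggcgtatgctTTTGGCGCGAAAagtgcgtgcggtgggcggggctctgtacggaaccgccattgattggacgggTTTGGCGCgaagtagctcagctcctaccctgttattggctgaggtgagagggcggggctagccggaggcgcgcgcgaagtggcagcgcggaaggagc
Mcm7: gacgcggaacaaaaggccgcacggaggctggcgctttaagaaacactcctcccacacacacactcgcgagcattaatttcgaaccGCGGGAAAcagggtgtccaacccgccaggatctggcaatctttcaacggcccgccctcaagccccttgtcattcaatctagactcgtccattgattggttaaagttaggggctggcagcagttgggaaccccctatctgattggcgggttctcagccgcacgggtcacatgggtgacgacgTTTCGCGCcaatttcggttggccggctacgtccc
Cdt1: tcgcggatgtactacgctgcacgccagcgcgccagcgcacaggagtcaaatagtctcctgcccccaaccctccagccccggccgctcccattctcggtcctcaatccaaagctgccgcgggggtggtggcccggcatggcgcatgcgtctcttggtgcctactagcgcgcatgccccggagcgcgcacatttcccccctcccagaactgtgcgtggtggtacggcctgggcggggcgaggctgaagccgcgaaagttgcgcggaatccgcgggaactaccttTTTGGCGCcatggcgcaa
Rfc3: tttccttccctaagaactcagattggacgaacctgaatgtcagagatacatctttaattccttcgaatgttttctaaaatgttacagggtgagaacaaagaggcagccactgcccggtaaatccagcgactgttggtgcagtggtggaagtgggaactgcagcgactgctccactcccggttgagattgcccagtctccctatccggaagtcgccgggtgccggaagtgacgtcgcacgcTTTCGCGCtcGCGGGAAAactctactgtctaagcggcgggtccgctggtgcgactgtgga
Rrm1: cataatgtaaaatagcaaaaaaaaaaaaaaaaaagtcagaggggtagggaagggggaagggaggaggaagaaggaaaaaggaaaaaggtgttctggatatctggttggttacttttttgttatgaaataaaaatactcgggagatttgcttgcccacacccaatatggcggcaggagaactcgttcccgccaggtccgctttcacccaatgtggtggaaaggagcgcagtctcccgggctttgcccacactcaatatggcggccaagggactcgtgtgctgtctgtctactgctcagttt

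In Mcm5 and Mcm6, matches on opposite strands overlap, so that their capitals run together. Mcm7 has another annotated start, whose window holds no match.

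**Figure D1:**
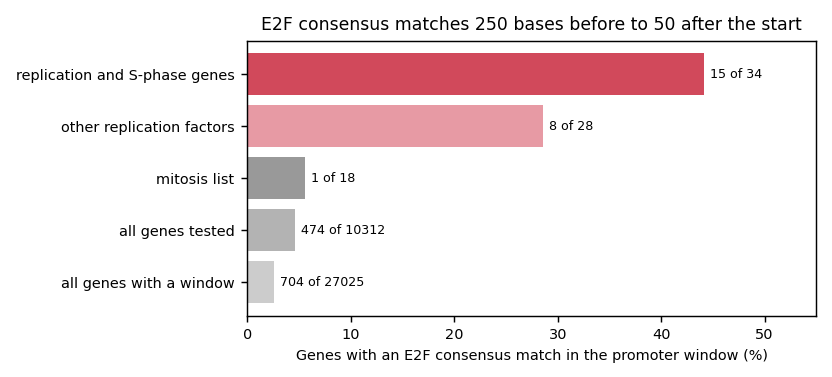
Share of genes (%) with at least 1 E2F motif match in a promoter window, for the 34 replication and S-phase genes with a window, 28 other replication factors, 18 mitosis genes, the tested genes and all genes with a window; numbers beside the bars are genes with a match of genes with a window. The share is 44.1% in the replication and S-phase genes, 28.6% in the other replication factors and 5.56% or less in the other bars.

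The day separated the set far more than the virus did. All 42 genes were lower at day 21 than at day 1 in vector cells (adjusted p under 0.05 in limma), where 41.9% of all tested genes were called lower, and all 42 were lower in HOXB13 cells, where 40.6% of all genes were. On the fitted scale of log2(RPM + 1), 32 of the 42 were at least 2-fold lower in vector, against 12% of all genes, and 32 of the 42 in HOXB13, against 10.5%. The median log2 fold change of the set was -1.36 in vector, with 0.00 over all genes tested, and -1.32 in HOXB13, with -0.01 over all genes. Without the TMM factors the HOXB13 median was -1.57, beside an all-gene median of -0.25 and 3857 genes called higher against 7373 lower in place of 5341 against 5489. The 3 libraries of day 21 lay below the 3 of day 1 for each of the 42 genes in both lines; over all genes, 41.9% in vector and 41.3% in HOXB13 were lower with no such overlap. Summed over the set, the level was 4512 ± 8.46 RPM in vector and 3774 ± 36.0 RPM in HOXB13 at day 1, and 1786 ± 37.1 RPM and 1405 ± 32.4 RPM at day 21 (mean ± SD, n = 3). In bulk RNA, fewer cycling cells and less of each RNA per cell cannot be told apart.

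What was left at day 21 varied among the genes. In vector it ran from 20.2% of the day 1 mean for Prim1, the catalytic primase, to 87.0% for Gins4, a GINS subunit, with a median of 37.8%. In HOXB13 it ran from 20.5% for Uhrf1, which reads hemimethylated DNA, to 83.4% for Gins4, with a median of 39.0%. Gins4 stood apart, since the next highest gene in both lines, the clamp loader subunit Rfc2, kept 72.1% and 70.5%. Over 50% of the day 1 mean was left in vector for 10 genes, Mcm4, Cdc45, Gins4, Prim2, Pcna, Rfc2, Rfc4, Rpa2, Chaf1b and E2f1, and in HOXB13 for 6 of these, Cdc45, Gins4, Prim2, Rfc2, Chaf1b and E2f1. The other 4 kept 42.3% (Mcm4), 49.9% (Pcna), 49.5% (Rfc4) and 49.4% (Rpa2) in HOXB13.

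**Figure D2:**
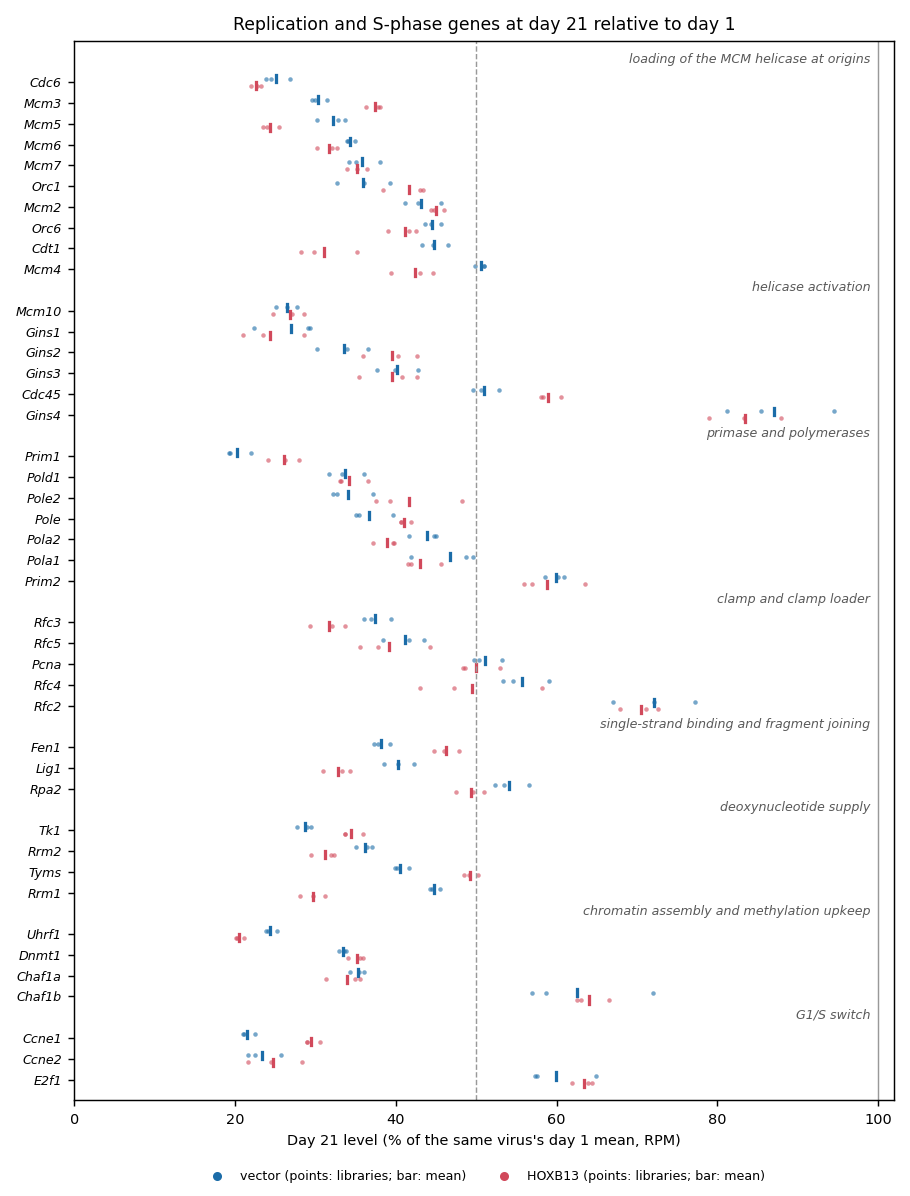
Level of each gene at day 21 as a percentage of the same line's day 1 mean (RPM), grouped by role; points are the 3 libraries of vector (blue) and HOXB13 (red), and bars their means. Most genes lie left of 50%, and Gins4 is the highest at 87.0% in vector and 83.4% in HOXB13.

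Between the viruses the differences were small and mostly toward lower levels in HOXB13. At day 1, 29 of the 42 genes were lower in HOXB13 and 2 were higher (Rfc3 and Lig1), where 38.5% of all genes were called lower and 33.9% higher. The lowest HOXB13 level was 64.8% of the vector mean (Rrm1) and the highest 119% (Lig1). The median log2 fold change was -0.23, against -0.03 over all genes. The count depends on the scaling: without the TMM factors 13 were lower and 11 higher, with a set median of -0.03 beside an all-gene median of 0.15, and 6697 of all genes were called higher against 3284 lower, in place of 4586 against 5210. Relative to the all-gene median the set lay at -0.20 with the factors and -0.18 without, and 35 and 34 of the 42 genes lay below it. Subtracting that median removes most of the shift from the factors, so this likeness does not test the scaling. The groups did not overlap for 32 genes that were lower (40.1% of all genes) and 3 that were higher (35.0% of all genes). With limma, Rfc3 was no longer called without vector replicate 3 (0.15, adjusted p = 0.0621) or without HOXB13 replicate 1 (0.16, adjusted p = 0.0555) of day 1, which left 1 higher gene.

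At day 21, 28 of the 42 genes were lower in HOXB13 and 2 were higher (Ccne1 and Tk1), where 35.1% of all genes were called lower and 37.3% higher. Only Rrm1 among them was at least 2-fold lower, as were 8.40% of all genes. The median log2 fold change was -0.23, against 0.01 over all genes, and without the TMM factors -0.30 against -0.05. Groups did not overlap for 27 genes that were lower (35.7% of all genes) and 2 that were higher (38.1%). Lower on both days were 24 genes (20.3% of all genes), at day 1 alone 5 (18.3%) and at day 21 alone 4 (14.8%), and 5 were called on neither day (10.2%). Comparisons at the same day share no libraries, but each shares its libraries with the comparisons between days.

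**Figure D3:**
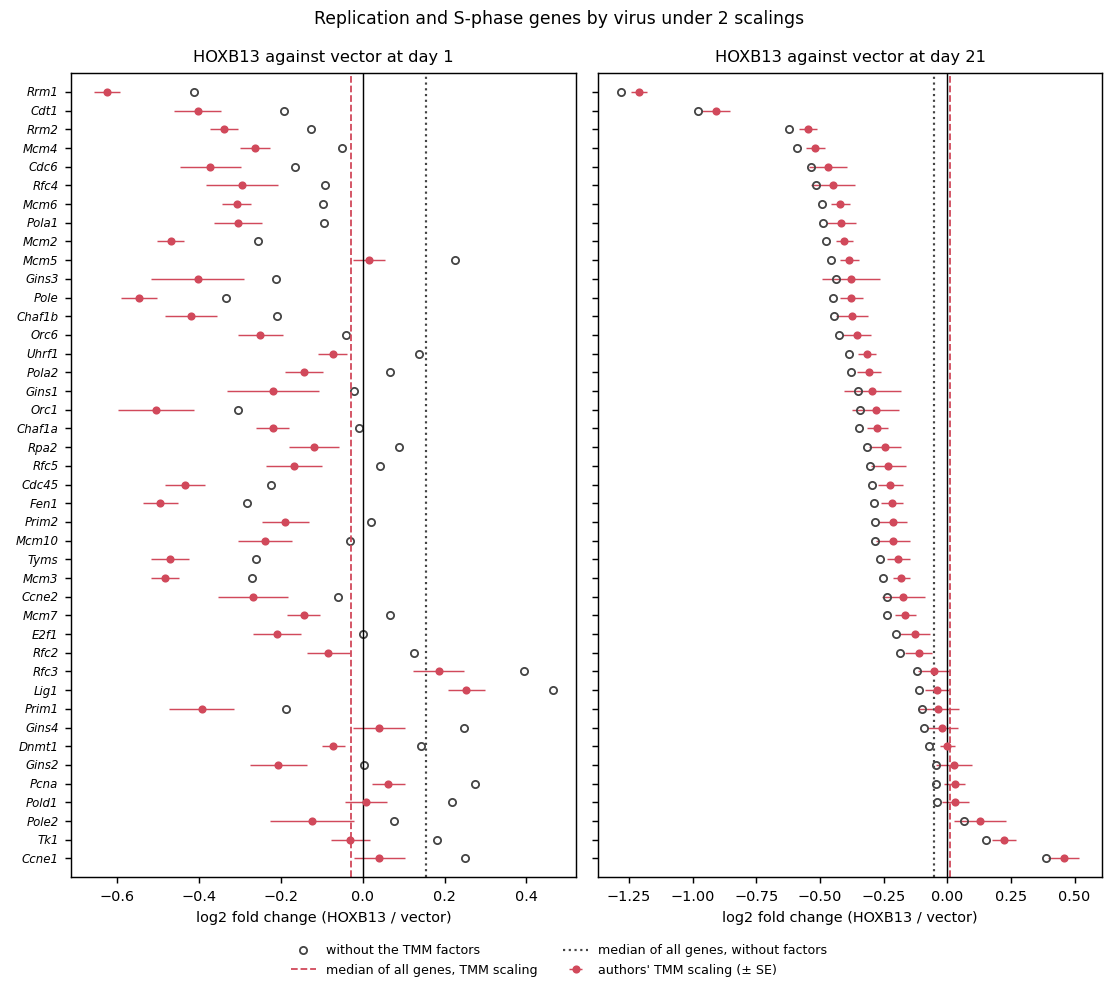
Log2 fold change of HOXB13 against vector for each gene at day 1 and at day 21, with the TMM factors (filled, ± SE) and without them (open); dashed and dotted lines are the medians of all genes tested under each scaling. At day 1 the open points lie to the right of the filled ones, and the set medians are -0.23 with and -0.03 without the factors; at day 21 they are -0.23 and -0.30.

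The change from day 1 to day 21 differed between the lines for 18 of the 42 genes, by the virus by day interaction in limma, as it did for 68.2% of all genes. In 9 the fall was deeper in HOXB13 (31.7% of all genes were called in that direction) and in 9 it was shallower (36.6%). The deeper falls were in Rrm1, Cdt1, Mcm5, Lig1, Mcm4, Uhrf1, Rfc3, Rrm2 and Pola2, with estimates of -0.59 to -0.16 on the log2 scale. The shallower falls were in Ccne1, Prim1, Mcm3, Tyms, Fen1, Tk1, Gins2, Cdc45 and Pole, with estimates of 0.17 to 0.42. Without the TMM factors limma called 28 genes lower and 0 higher, also at an unadjusted p under 0.05, only 3 of the 9 shallower falls kept an estimate above 0, and over all genes 2815 were higher against 6862 lower in place of 4941 against 4279. The all-gene median then moved from 0.03 to -0.23. Relative to that median, all 18 kept their sign under both scalings. Dropping the factors shifts all genes of a contrast by nearly the same amount, so this agreement is no separate check on the scaling.

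**Figure D4:**
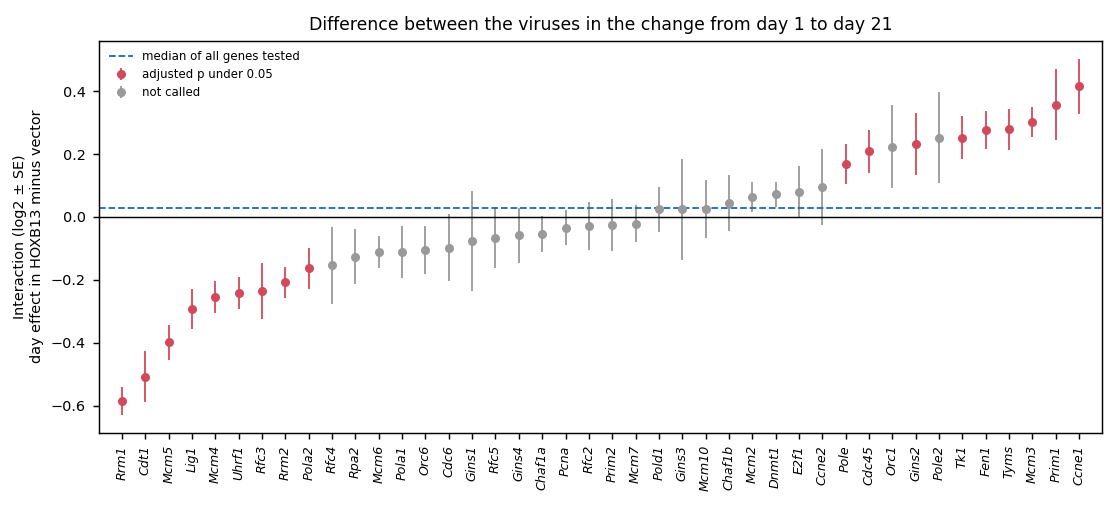
Virus by day interaction of the 42 genes in order (log2 with the TMM factors, HOXB13 day effect minus vector day effect, ± SE); red points passed the adjusted p of 0.05. The 9 called genes at each end run from -0.59 for Rrm1 to 0.42 for Ccne1; without the factors only 3 of the 9 at the upper end stay above 0.

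Gene coordinates below are those of GENCODE M21 on GRCm38. In helicase loading, all 10 genes fell with the day in both lines. Over all genes, 41.9% fell in vector and 40.6% in HOXB13, shares that stand beside each step below. Lower in HOXB13 were 9 of the 10 at day 1 (38.5% of all genes) and all 10 at day 21 (35.1%). Cdc6, the ATPase that brings the Mcm ring to the origin, was at 36.6, 40.4 and 36.9 RPM in the vector libraries at day 1 and 10.2, 9.30 and 9.03 RPM at day 21, the deepest vector fall of the step (-1.89 ± 0.07, adjusted p = 5.73e-17; log2 fold change ± SE here and below, on the scale of RPM + 1, which also ranks the genes of a step unless a percentage is given). The libraries of the days were far apart. Cdt1 (chr8:122568015-122573554, plus strand), which delivers the Mcm ring together with Cdc6, was at 95.5, 92.5 and 94.8 RPM in vector and 69.4, 72.3 and 71.6 RPM in HOXB13 at day 1. By day 21 it was at 43.9, 42.1 and 40.7 RPM in vector and 25.03, 21.2 and 20.05 RPM in HOXB13. All HOXB13 libraries lay below all vector libraries on each day, and the ratio between the lines grew: the log2 fold change was -0.91 ± 0.06, adjusted p = 9.37e-13 at day 21, and the interaction was -0.51 ± 0.08, adjusted p = 7.67e-06.

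The Mcm subunits make up the hexamer of the helicase, yet they did not move as 1 block. Mcm5 was at 184, 182 and 180.3 RPM in vector and 184, 185 and 183 RPM in HOXB13 at day 1, with overlapping groups (0.01 ± 0.04, adjusted p = 0.754). By day 21 it was at 59.7, 61.4 and 55.1 RPM in vector and 44.2, 46.8 and 43.2 RPM in HOXB13. These no longer overlapped, and its fall in HOXB13 was -2.02 ± 0.04, adjusted p = 5.58e-23, with 24.3% left, beside 22.6% for Cdc6, the least of the step. Mcm3 went the other way. It was at 225, 216 and 226 RPM in vector and 158, 161 and 157 RPM in HOXB13 at day 1, well apart. At day 21 the values were 69.9, 66.4 and 65.7 RPM and 59.9, 60.3 and 57.6 RPM, still without overlap but closer. The interaction estimates were -0.40 for Mcm5, -0.26 for Mcm4 and 0.30 for Mcm3. Mcm7 had the smallest virus difference of the step at day 21 (-0.16 ± 0.04, adjusted p = 0.00101) and the smallest interaction (-0.02 ± 0.06, adjusted p = 0.761).

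Mcm4 was the most abundant of the 6 subunits per kilobase of annotated exon in all 4 groups, at 70.1, 58.4, 35.5 and 24.7 RPM per kb in vector and HOXB13 at day 1 and vector and HOXB13 at day 21. It also had the smallest vector fall of the step (-0.98 ± 0.04, adjusted p = 1.43e-17). The ratio of the highest to the lowest subunit per kilobase was 2.01, 2.20, 2.84 and 2.23 in the same order. The origin recognition subunit Orc1 had the largest difference of the step at day 1, from 21.7, 22.0 and 19.3 RPM in vector to 15.3, 13.4 and 14.9 RPM in HOXB13 (-0.50 ± 0.09, adjusted p = 4.22e-05). The groups did not overlap, and without the TMM factors the estimate was -0.30. At day 21 its difference of -0.28 did not pass without vector replicate 1 of that day (-0.22). Mcm2 kept the most of the step in HOXB13, 45.0% of the day 1 mean.

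**Figure D5:**
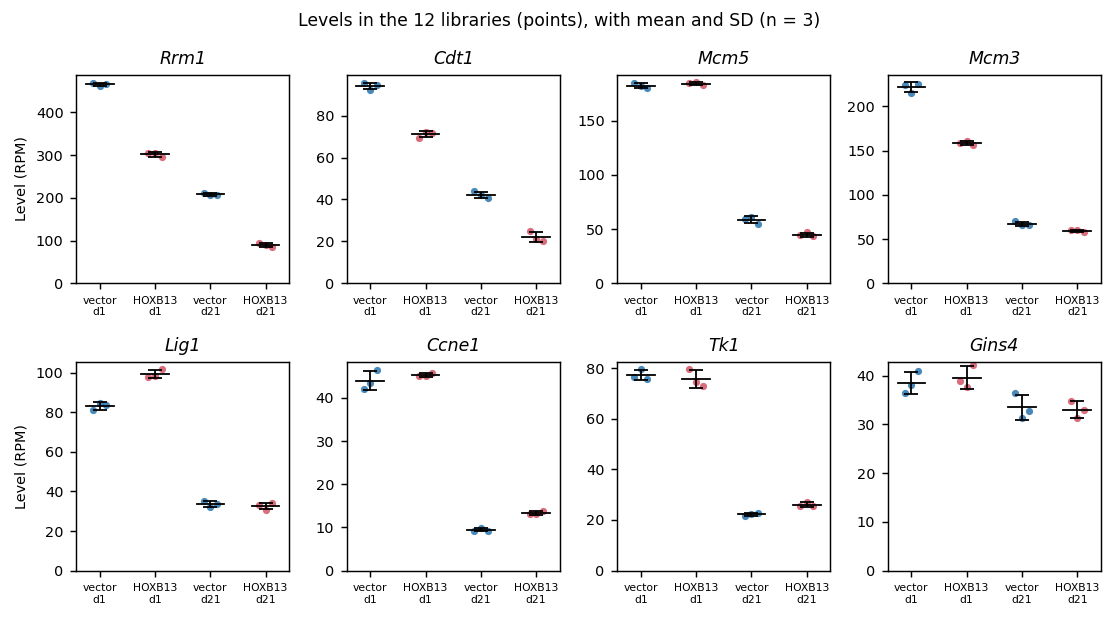
Levels (RPM) of 8 of the genes in each of the 12 libraries; points are libraries (blue vector, red HOXB13), horizontal bars are group means and error bars are the SD (n = 3). HOXB13 as a percentage of vector goes from 64.8% to 43.0% for Rrm1, from 75.4% to 52.3% for Cdt1 and from 101% to 76.2% for Mcm5 between day 1 and day 21, while Gins4 lies between 31.3 and 42.3 RPM in all libraries.

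In helicase activation, all 6 genes fell with the day in both lines. Lower in HOXB13 were 4 of 6 on each day (38.5% of all genes at day 1 and 35.1% at day 21). Mcm10, a scaffold needed to start unwinding, fell most of the step in vector: it was at 53.6, 60.6 and 61.5 RPM in vector at day 1 and 16.2, 15.5 and 14.7 RPM at day 21 (-1.85 ± 0.07, adjusted p = 7.67e-18), with a like fall in HOXB13 (-1.83 ± 0.07, adjusted p = 1.12e-17). Gins4 (chr8:23226616-23237659, minus strand), which encodes the Sld5 subunit of GINS, kept more of its level than its partners. It was at 36.5, 38.1 and 40.9 RPM in vector and 38.9, 37.7 and 42.3 RPM in HOXB13 at day 1, and at 36.4, 31.3 and 32.9 RPM and 34.8, 31.3 and 33.0 RPM at day 21. The viruses overlapped on both days, and the day effect was small but passed the test in vector (-0.20 ± 0.06, adjusted p = 0.00608) and in HOXB13 (-0.26 ± 0.06, adjusted p = 7.45e-04). The other GINS subunits, Gins1, Gins2 and Gins3, kept 26.9%, 33.5% and 40.1% of their vector day 1 level.

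Per kilobase of exon, Gins4 made up 49.4% to 55.05% of the summed GINS level in the vector libraries at day 1 and 73.4% to 75.7% at day 21. In HOXB13 its share was 55.9% to 58.8% at day 1 and 74.3% to 78.4% at day 21. The days did not overlap in either line, and the ratio of Gins4 to Gins3, the lowest subunit, rose from 6.74 to 14.6 in the vector means and from 9.50 to 20.02 in the HOXB13 means. The size of these shares depends on the exon lengths used, 1.349 kb for Gins4 and 4.097 kb for Gins2. In RPM, Gins2 was above Gins4 at day 1, with means of 51.4 against 38.5 in vector and 44.4 against 39.6 in HOXB13. At day 21 it was below Gins4, at 17.3 against 33.5 and 17.6 against 33.0. Cdc45, the helicase partner of GINS, was lower in HOXB13 at day 1, at 55.8, 55.5 and 57.7 RPM in vector and 42.01, 42.03 and 40.4 RPM in HOXB13 (-0.43 ± 0.05, adjusted p = 3.18e-08). The groups did not overlap. Gins2 had the largest interaction (0.23 ± 0.10, adjusted p = 0.0412), though the call was lost without any 1 of 7 libraries, with estimates of 0.16 to 0.24. Of its exon bases, 67.3% lie opposite another gene, Gse1, and without the TMM factors its estimate was -0.05. Gins3 had the largest difference at day 21 (-0.38 ± 0.11, adjusted p = 0.00471), from 4.32, 4.57 and 4.91 RPM in vector to 3.57, 2.96 and 3.41 RPM in HOXB13, which did not overlap.

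Among the primase and polymerase genes, all 7 fell with the day in both lines. Lower in HOXB13 were 5 at day 1 (38.5% of all genes) and 4 at day 21 (35.1%). Prim1 (chr10:128015168-128030037, plus strand), the catalytic subunit of primase, which makes the RNA starts of new strands, was at 38.6, 45.0 and 39.6 RPM in vector and 30.3, 32.2 and 30.5 RPM in HOXB13 at day 1. On day 21 the values were 7.91, 7.95 and 9.03 RPM and 8.12, 8.65 and 7.45 RPM. The viruses were apart at day 1 and overlapped at day 21 (-0.04 ± 0.08, adjusted p = 0.705), and the interaction was 0.36 ± 0.11, adjusted p = 0.00761. Its partner Prim2, the large primase subunit, fell least of the step, with -0.72 ± 0.06, adjusted p = 4.82e-11 in vector and -0.74 ± 0.06, adjusted p = 2.96e-11 in HOXB13. Per kilobase, Prim1 was the highest of the 4 polymerase α-primase genes on day 1 in vector, at 10.6 RPM per kb. In HOXB13 it was at 8.01 RPM per kb, hardly above Pola1 at 7.97. On day 21 Prim1 was the lowest, at 2.14 and 2.09 RPM per kb. The day 1 rank depends on the exon lengths used, since in RPM Prim1 had the lowest mean of the 4 genes in every group.

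Pole, the catalytic subunit of the leading-strand polymerase, and Pold1, that of the main lagging-strand polymerase, gave different values in the comparison of the viruses. Pole was at 121, 121 and 116 RPM in vector and 82.1, 82.8 and 79.5 RPM in HOXB13 at day 1, without overlap and with the largest difference of the step (-0.55 ± 0.04, adjusted p = 1.40e-10). Pold1 was at 73.6, 76.5 and 75.2 RPM and 75.8, 75.2 and 75.7 RPM at day 1, and its estimates were 0.01 ± 0.05, adjusted p = 0.893 at day 1 and 0.03 ± 0.05, adjusted p = 0.583 at day 21. The vector and HOXB13 libraries of Pold1 overlapped on both days, although without the TMM factors its day 1 estimate was 0.22 beside the all-gene median of 0.15. Pola1, the catalytic subunit of polymerase α and the X-linked gene of the set, had the largest difference of the step at day 21 (-0.42 ± 0.06, adjusted p = 9.29e-07). It was at 43.2, 42.4 and 36.4 RPM in vector and 32.0, 29.2 and 29.4 RPM in HOXB13, which did not overlap. Pole2, a further polymerase ε subunit, passed the test in neither comparison of the viruses. The interactions of Pole and Pola2 passed with all libraries (0.17 and -0.16) but not without 1 of 4 libraries for Pole, with estimates of 0.14 to 0.16, or 1 of 7 for Pola2, with -0.17 to -0.13.

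Of the clamp and its loader, all 5 genes fell with the day in both lines. At day 1, 2 were lower and 1 higher in HOXB13, where 38.5% of all genes were lower and 33.9% higher. At day 21, 2 were lower (35.1% of all genes). On each day the count of lower genes is near the all-gene share. Pcna, the ring that holds polymerases on DNA, was at 103, 101.5 and 101 RPM in vector and 108, 106 and 105 RPM in HOXB13 at day 1, and at 54.2, 51.2 and 50.6 RPM and 56.3, 51.7 and 51.4 RPM at day 21. It did not pass the test between the viruses on either day (0.06 ± 0.04, adjusted p = 0.168 at day 1 and 0.03 ± 0.04, adjusted p = 0.531 at day 21), although its day 1 estimate was 0.27 without the TMM factors, above the all-gene median of 0.15. Rfc3 (chr5:151642756-151651242, minus strand) was the exception at day 1: this small subunit of the loader was at 43.6, 42.4 and 39.9 RPM in vector and 49.6, 47.0 and 47.0 RPM in HOXB13, higher in every HOXB13 library. At day 21 it was at 15.5, 15.1 and 16.5 RPM and 14.0, 15.4 and 16.1 RPM, with overlap. Its fall was the deepest of the step in both lines (-1.36 ± 0.06, adjusted p = 1.13e-15 in vector and -1.60 ± 0.06, adjusted p = 5.66e-17 in HOXB13), and its interaction was -0.24 ± 0.09, adjusted p = 0.0226. That call was lost without vector replicate 3 of either day or HOXB13 replicate 1 of either day, with estimates of -0.21 to -0.18. Rfc4, another loader subunit, had the largest virus difference of the step on each day (-0.29 ± 0.09, adjusted p = 0.00436 at day 1 and -0.45 ± 0.09, adjusted p = 7.41e-05 at day 21). Rfc2 fell least (-0.46 ± 0.05, adjusted p = 2.74e-08 in vector and -0.49 ± 0.05, adjusted p = 1.17e-08 in HOXB13). Over 10% of the exon bases of Rfc2, Rfc4 and Rfc5 lie opposite another gene.

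The 3 genes of single-strand binding and fragment joining all fell with the day in both lines. Lig1 (chr7:13277283-13311433, plus strand), the ligase that seals lagging-strand fragments, was at 81.2, 84.9 and 83.6 RPM in vector and 97.9, 98.4 and 102.02 RPM in HOXB13 at day 1, higher in every HOXB13 library (log2 fold change 0.25, and 0.46 without the TMM factors). By day 21 its level was 35.1, 32.1 and 33.5 RPM and 33.1, 30.8 and 34.0 RPM, with overlap (-0.04 ± 0.05, adjusted p = 0.44). Its interaction was the largest of the step (-0.29 ± 0.06, adjusted p = 3.34e-04). Fen1, the flap endonuclease that acts just before the ligase, moved opposite to it at day 1, from 87.2, 89.1 and 91.4 RPM in vector to 63.1, 64.1 and 62.1 RPM in HOXB13 (-0.49 ± 0.04, adjusted p = 4.52e-10). These did not overlap, and the estimate at day 21 was -0.22. The interaction was 0.28, and -0.00 without the TMM factors. As 84.2% of the Fen1 exon bases lie opposite other genes, its level is uncertain if the strand was not used in counting. Rpa2, a subunit of the protein that coats single-stranded DNA, kept 54.1% of its day 1 level in vector and 49.4% in HOXB13, and was lower in HOXB13 at day 21 (-0.24 ± 0.06, adjusted p = 0.00107).

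In deoxynucleotide supply, Rrm1 (chr7:102441695-102469771, plus strand), the large subunit of ribonucleotide reductase, which turns ribonucleotides into deoxynucleotides, had the largest virus difference of the 42 genes on each day. It was at 468, 460.4 and 467 RPM in vector and 305, 304 and 296 RPM in HOXB13 at day 1. On day 21 the values were 211, 205 and 207 RPM in vector and 94.1, 89.3 and 84.8 RPM in HOXB13. The HOXB13 mean was thus 64.8% of the vector mean at day 1 and 43.0% at day 21, with no overlap on either day. The log2 fold changes were -0.62 ± 0.03, adjusted p = 1.46e-14 at day 1 and -1.21 ± 0.03, adjusted p = 2.84e-20 at day 21, and the interaction was -0.59 ± 0.04, adjusted p = 4.64e-11, the largest of the set. Without the TMM factors the estimates were -0.41, -1.28 and -0.87, in the same direction each time.

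Rrm2, the small subunit, made in S phase, was lower in HOXB13 as well, at 306, 298 and 294 RPM in vector and 239.7, 234 and 235 RPM in HOXB13 at day 1. At day 21 it was at 111, 109 and 105 RPM and 76.2, 75.5 and 69.5 RPM, and its interaction was smaller than that of Rrm1 (-0.21 ± 0.05, adjusted p = 6.23e-04). Per kilobase of exon, the ratio of Rrm2 to Rrm1 was 2.499 to 2.60 in the vector libraries at day 1 and 2.01 to 2.11 at day 21. In HOXB13 it was 3.06 to 3.16 and 3.22 to 3.36. Vector and HOXB13 libraries did not overlap in this ratio, which needs no scaling between libraries. Tk1, the thymidine kinase of the salvage route, was 1 of 2 genes higher in HOXB13 at day 21, at 21.4, 22.4 and 22.7 RPM in vector and 25.6, 27.2 and 25.5 RPM in HOXB13, with no overlap. At day 1 it did not pass the test (-0.03 ± 0.05, adjusted p = 0.595; 0.18 without the TMM factors), and it had the deepest vector fall of the step (-1.76 ± 0.05, adjusted p = 4.59e-20). Tyms, which makes thymidylate, had the smallest difference at day 21 (-0.19 ± 0.05, adjusted p = 8.03e-04) and the smallest HOXB13 fall (-0.996 ± 0.05, adjusted p = 1.77e-15).

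Of the genes for chromatin assembly and methylation upkeep, all 4 fell with the day in both lines. Uhrf1 (chr17:56303321-56323486, plus strand), which finds hemimethylated sites behind the fork and brings in Dnmt1, was at 166, 164 and 167 RPM in vector and 158, 154 and 159.6 RPM in HOXB13 at day 1. By day 21 its level was 39.5, 41.7 and 39.9 RPM and 31.7, 31.8 and 33.2 RPM, below the vector range in every HOXB13 library. The fall was -2.01 ± 0.04, adjusted p = 1.45e-23 in vector and -2.25 ± 0.04, adjusted p = 1.45e-24 in HOXB13, deeper in HOXB13 by the interaction (-0.24 ± 0.05, adjusted p = 2.08e-04). Dnmt1, the maintenance methyltransferase, fell in both lines from 406 to 136 RPM in vector and from 386 to 136 RPM in HOXB13 (group means). On day 21 the values were 136, 137 and 134 RPM in vector and 137, 139 and 131 RPM in HOXB13, overlapping (0.00 ± 0.03, adjusted p = 0.974). At day 1 its estimate was -0.07 ± 0.03, adjusted p = 0.0272, it turned to 0.14 without the TMM factors, and it did not pass without vector or HOXB13 replicate 3 of day 1 (-0.06 in each). Chaf1b, a subunit of the histone chaperone CAF-1, fell least (-0.67 ± 0.06, adjusted p = 7.28e-10 in vector and -0.63 ± 0.06, adjusted p = 2.93e-09 in HOXB13) and had the largest virus difference of the step on both days (-0.42 ± 0.06, adjusted p = 2.47e-06 at day 1 and -0.37 ± 0.06, adjusted p = 1.16e-05 at day 21). Its partner Chaf1a kept 35.3% and 33.9%, with 52.5% of its exon bases opposite another gene.

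At the G1/S switch, Ccne1 (chr7:38097984-38107534, minus strand) encodes cyclin E1, which drives the start of S phase with its kinase. It was at 42.2, 43.4 and 46.5 RPM in vector and 45.2, 45.0 and 45.7 RPM in HOXB13 at day 1, with overlap (0.04 ± 0.06, adjusted p = 0.568). At day 21 it was at 9.21, 9.90 and 9.27 RPM and 13.1, 13.1 and 13.9 RPM, higher in every HOXB13 library (0.46 ± 0.06, adjusted p = 6.31e-07). The interaction was the most positive of the set (0.42 ± 0.09, adjusted p = 2.31e-04), and the estimate without the TMM factors was 0.14. Ccne2, its paralogue, was lower in HOXB13 at day 1 (-0.27 ± 0.08, adjusted p = 0.0072) and fell in HOXB13 by 1.90 on the log2 scale, the deepest HOXB13 fall of the 3 genes. E2f1, an activating E2F factor, was at 55.8, 64.4 and 66.9 RPM in vector and 54.9, 53.2 and 53.0 RPM in HOXB13 at day 1, and at 40.4, 35.9 and 35.7 RPM and 34.6, 33.3 and 34.3 RPM at day 21. It fell least of the 3 (-0.72 ± 0.06, adjusted p = 5.80e-11 in vector and -0.64 ± 0.06, adjusted p = 5.79e-10 in HOXB13), and its virus difference at day 21 did not pass the test (-0.13 ± 0.06, adjusted p = 0.0548).

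Other genes of the same pathway fell with the day as well. Of 34 further replication factors, 28 were lower and 3 higher at day 21 in vector, and 30 were lower and 2 higher in HOXB13 (41.9% and 40.6% of all genes were lower), with medians of -1.04 and -0.83. Ticrr, which helps Cdc45 onto the helicase, was at 44.4 ± 1.72 RPM in vector at day 1 and 5.85 ± 0.355 RPM at day 21 (SD, n = 3), the deepest of these falls in vector (-2.73 ± 0.08). Of 13 further genes of nucleotide supply, 12 were lower and 1 higher in each line, and of 11 further chromatin genes 10 were lower in vector and 11 in HOXB13. All 16 S-phase repair genes and all 22 mitosis genes were lower in both lines, the latter with medians of -1.86 and -1.88. Mki67, the common proliferation marker, was at 563 ± 11.1 and 455 ± 9.19 RPM in vector and HOXB13 at day 1, and at 158 ± 7.23 and 116 ± 6.93 RPM at day 21. Ccna2, the cyclin of S phase and G2, was at 369.6 ± 2.09, 239.9 ± 5.09, 90.1 ± 3.495 and 59.8 ± 2.83 RPM in the same order.

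Between the viruses, 16 of the 34 further replication factors were lower in HOXB13 at day 1 and 5 higher, and 13 were lower and 8 higher at day 21. Over all genes 38.5% were lower and 33.9% higher at day 1, and 35.1% and 37.3% at day 21, so the count of lower genes at day 21 is near the all-gene share. Rpa1, the largest subunit of the single-strand binding protein, was at 209, 225 and 211 RPM in vector and 101, 101 and 98.0 RPM in HOXB13 at day 21 (-1.09 ± 0.03), which did not overlap. Timeless, a fork protection factor, was higher in HOXB13 at day 21, at 21.7, 20.8 and 20.6 RPM in vector and 30.2, 30.6 and 32.0 RPM in HOXB13 (0.54 ± 0.05). In nucleotide supply, 9 of 13 genes were lower at day 1, and 10 were lower and 2 higher at day 21. Samhd1, which breaks deoxynucleotides down, had the largest of these differences at day 21, at 173, 171 and 172 RPM in vector and 77.6, 73.4 and 71.1 RPM in HOXB13 (-1.21 ± 0.03). Thus both a gene that makes deoxynucleotides, Rrm1, and one that removes them were lower in HOXB13. Of the 22 mitosis genes, 20 were lower and 1 higher at day 1, and 19 were lower at day 21.

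The 34 regulators of G1/S were mixed. In HOXB13 against vector, 10 were higher and 16 lower at day 1, and 18 were higher and 12 lower at day 21, of which the 10 and the 12 are near the all-gene shares just given. Ccnd1, cyclin D1, was at 309.5, 317 and 335 RPM in vector and 626, 640.2 and 615 RPM in HOXB13 at day 1, and at 239, 236 and 224 RPM and 439.6, 438 and 429 RPM at day 21. Cdkn2a, the locus of the inhibitors p16 and Arf, was higher in HOXB13 too, at 132, 130.1 and 132 RPM and 253, 258 and 257 RPM at day 1 and 237, 230.0 and 237 RPM and 419.6, 422 and 432 RPM at day 21. Both Ccnd1 and Cdkn2a were thus higher on both days, without overlap (log2 fold changes of 0.97 and 0.90 for Ccnd1, and 0.96 and 0.85 for Cdkn2a). Reads summed per gene do not tell the p16 and Arf transcripts of Cdkn2a apart. Cdk6, a kinase partner of cyclin D, was at 198, 197 and 205 RPM in vector and 91.2, 93.2 and 88.6 RPM in HOXB13 at day 1 (-1.13 ± 0.03), and -1.49 ± 0.03 was its log2 fold change at day 21. Rbl2, the pocket protein p130 of resting cells, was higher in HOXB13 at day 1, at 17.3, 16.8 and 19.9 RPM in vector and 47.4, 49.0 and 45.5 RPM in HOXB13. By day 21 vector had risen to 36.4, 37.7 and 37.6 RPM beside 40.5, 41.5 and 38.9 RPM in HOXB13, and the interaction was -1.24 ± 0.08. Tfdp2, a dimer partner of E2F factors, was at 117, 122.6 and 117 RPM in vector and 29.3, 28.8 and 27.4 RPM in HOXB13 at day 21 (-2.03 ± 0.05).

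Mybl2 and E2f7 fell more than any of the 42 genes in both lines. Mybl2, the B-Myb factor that acts with the MuvB complex in cycling cells, was at 74.2, 74.0 and 71.7 RPM in vector at day 1 and 5.38, 5.70 and 5.76 RPM at day 21 (-3.49 ± 0.08). In HOXB13 it went from 39.2, 34.2 and 39.4 RPM to 6.68, 6.002 and 4.94 RPM (-2.49 ± 0.08), so the lines differed at day 1 and overlapped at day 21. E2f7, an atypical E2F that represses its targets, went from 66.2 to 5.74 RPM in vector and from 55.03 to 9.80 RPM in HOXB13 (group means), with interactions of 0.94 ± 0.09 for E2f7 and 0.997 ± 0.12 for Mybl2. Without the TMM factors these were 0.67 and 0.73. Cdkn1a, the inhibitor p21, which p53 commonly induces, was low and rose in both lines, from 7.18, 6.83 and 7.71 RPM to 14.4, 15.5 and 13.2 RPM in vector and from 9.25, 11.1 and 8.67 RPM to 26.0, 24.0 and 24.99 RPM in HOXB13. Rb1, the retinoblastoma gene, was at 11.1 ± 0.345 and 11.1 ± 0.314 RPM at day 1 in vector and HOXB13 and at 17.1 ± 2.51 and 13.0 ± 1.52 RPM at day 21.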

How the data were processed

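RNA was measured with a strand-specific NuGEN mRNA kit in 12 libraries, 3 per group. The signal deposited by the authors is a gene's reads per 1000000 reads of library size after TMM scaling, and every value was a whole number of reads within 0.01. The submitters' processing notes list DESeq2, edgeR, HTSeq 0.6.1 and STAR 2.7.2a, with the human build GRCh38 although the gene identifiers are mouse. The mouse build and whether counting used the strand are not given in the sources used here. For 8 of the 42 genes (Ccne2, Chaf1a, Fen1, Gins2, Orc1, Rfc2, Rfc4 and Rfc5), over 10% of exon bases lie opposite another gene in GENCODE M21, so their levels are uncertain.

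Tests covered the 13516 genes that reached 1 RPM in 3 or more libraries. A model with 1 mean per group was fitted to log2(RPM + 1) over all 12 libraries with limma 3.58.1 (eBayes with trend, R 4.3.3), so fold changes of low genes are understated. Tests were two-sided, adjusted by Benjamini and Hochberg over all genes of a contrast, with a threshold of 0.05; adjusted p-values are limma's. Standard errors and p-values rest on the spread among the libraries, and levels count reads, not independent molecules. The script was tested on simulated data. The 42 genes and the other lists were chosen with earlier results of these data known. Full statistics were kept to the largest and smallest change of each role per contrast; from other lists up to 4 called genes per contrast were named, with Mki67, Ccna2, Ccnd1, Cdkn1a, Cdkn2a, Rb1, Samhd1, Hoxb13, Xist and Ddx3y. Other full statistics, and exact estimates for further called genes, were added after their values were seen. Equal replicate numbers did not pair the libraries: residual correlations of equal numbers ran from -0.0749 to 0.0683 over 10682 genes, with 0 of 18 above 0.1. Levels per kilobase use the merged exons of all annotated transcripts of a gene in GENCODE M21. That length can exceed any 1 transcript, and ranks between genes per kilobase depend on it. Promoter windows are RefSeq's.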

Additional observations from a re-analysis of the deposited data

Results flagged for a closer look

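The change from day 1 to day 21 differed between the 2 lines, by limma's virus by day interaction with an adjusted p under 0.05, for 18 of the 42 genes. On the log2 scale, with the TMM factors, the fall was deeper in HOXB13 for Rrm1 (-0.59), Cdt1 (-0.51), Mcm5 (-0.40), Lig1 (-0.29), Mcm4 (-0.26), Uhrf1 (-0.24), Rfc3 (-0.24), Rrm2 (-0.21) and Pola2 (-0.16). It was shallower in HOXB13 for Ccne1 (0.42), Prim1 (0.36), Mcm3 (0.30), Tyms (0.28), Fen1 (0.28), Tk1 (0.25), Gins2 (0.23), Cdc45 (0.21) and Pole (0.17), of which Tyms, Fen1, Tk1, Gins2, Cdc45 and Pole turned below 0 without those factors. Over all genes tested, 68.2% passed the same test.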

How the results depend on the processing

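All 42 genes stayed lower at day 21 in both lines under every alternative run. These were a filter of 5 RPM or none, pseudocounts of 4 and 0.25, scaling by quantiles, by median of ratios or without TMM factors, DESeq2 1.42.0 and edgeR 4.0.16 on whole reads, a fit to a comparison's own libraries, a replicate block, and each library left out. With the replicate block, limma called 29 genes lower at day 1, 29 at day 21 (28 without it), and 9 and 9 in the interaction, so no count moved by over 1.5 times. The fit to a comparison's own libraries was not run for the interaction, which uses all 12.

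Scaling moved the counts. Quantile normalization called 5 genes higher at day 1, and dropping the TMM factors 11 higher and 13 lower. Leaving out 1 library gave 1 to 2 higher at day 1, with 1 without vector replicate 3 or HOXB13 replicate 1 of that day. In the interaction, quantile normalization gave 16 lower, and leaving out the TMM factors gave 28 lower and 0 higher, also at an unadjusted p under 0.05. Calls lost when 1 library was left out numbered 4 of 31 at day 1, 2 of 30 at day 21, and 4 of 18 in the interaction.

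Among genes called under at least 1 setting, day 1 estimates that changed sign without the TMM factors were Mcm7 (0.068), Gins2 (0.0027), Pola2 (0.066), Prim2 (0.020), Rfc2 (0.13), Rfc5 (0.042), Rpa2 (0.090), Tk1 (0.18), Uhrf1 (0.14), Dnmt1 (0.14) and E2f1 (0.0018), and under quantile normalization Tk1 (0.059), Uhrf1 (0.046) and Dnmt1 (0.22). At day 21 Dnmt1 turned to -0.054 (quantile), -0.072 (no TMM factors) and -0.00065 (DESeq2). Interaction estimates that changed sign without the TMM factors were Orc1 (-0.040), Mcm2 (-0.22), Mcm10 (-0.25), Cdc45 (-0.071), Gins2 (-0.046), Pold1 (-0.26), Pole (-0.11), Pole2 (-0.011), Fen1 (-0.0043), Tyms (-0.0020), Tk1 (-0.029), Chaf1b (-0.24), Dnmt1 (-0.21) and E2f1 (-0.20), and under quantile normalization Mcm2 (-0.14), Mcm10 (-0.0017), Pold1 (-0.051) and Dnmt1 (-0.27). Leaving out 1 library, estimates that crossed 0 ranged at day 1 -0.0058 to 0.022 for Pold1 and -0.0069 to 0.083 for Gins4; at day 21 -0.015 to 0.025 for Dnmt1 and -0.071 to 0.00017 for Lig1; and in the interaction -0.019 to 0.087 for Mcm10, -0.080 to 0.0076 for Prim2, -0.052 to 0.024 for Mcm7, -0.11 to 0.00057 for Gins4, -0.078 to 0.021 for Rfc2, -0.023 to 0.073 for Pold1, -0.016 to 0.15 for Chaf1b and -0.088 to 0.00045 for Chaf1a; these were not called with all libraries. Genes called under no setting also changed sign: without the TMM factors Pole2 (0.076) at day 1, Gins2 (-0.043), Pold1 (-0.039) and Pcna (-0.044) at day 21 and Gins3 (-0.22) and Ccne2 (-0.18) in the interaction, and under quantile normalization Prim1 (0.023) at day 21 and Gins1 (0.060) in the interaction. The cause of these shifts was not tested beyond the scaling factors themselves. Depth limited the lowest genes, Gins1 and Gins3, which had as few as 37 and 38 reads in a HOXB13 library at day 21.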

Other observations

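In addition to the E2F letters, CCAAT, the box bound by the factor NF-Y, was searched on both strands of the same windows. It was found for 20 of the 34 genes with a window (58.8%), 14 of 18 mitosis genes (77.8%) and 11096 of 27025 genes with a window (41.1%). Among the other replication factors it was found for 12 of 28 (42.9%), near the share of tested genes, 4462 of 10312 (43.3%). The level left at day 21 was set beside the E2F match as a description. The 15 genes with a match kept a median of 34.3% of the day 1 level in vector and 34.2% in HOXB13. The 19 with a window but no match kept 43.2% and 41.1%, and the 8 genes without a window kept 43.6% and 41.7%. The ranges overlapped widely, at 24.4% to 46.8% with a match and 20.2% to 62.5% without one in vector.

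Among genes of S-phase repair, Bard1, the partner of Brca1 in repair by homologous recombination, was at 8.07, 7.57 and 7.48 RPM in vector and 4.32, 3.98 and 3.62 RPM in HOXB13 at day 21, without overlap (-0.81 ± 0.09 on the log2 scale, ± SE). Exo1, a nuclease that resects DNA ends, was lower in HOXB13 on both days (-0.60 at day 1 and -0.40 at day 21). Of the 16 genes of this list, 6 were lower and 2 higher in HOXB13 at day 1, where 38.5% of all genes were lower and 33.9% higher, so the day 1 count of lower genes is near the all-gene share. At day 21, 9 were lower and 1 higher, where 35.1% and 37.3% of all genes were.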
